A study of Mus musculus with 6 samples.

Results

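Oxidative phosphorylation is carried out by 5 protein complexes of the inner mitochondrial membrane, and their subunits are encoded partly in the nucleus and partly in mitochondrial DNA. The genes described here are the 97 that carry a subunit or Ndufaf symbol of complexes I to V or cytochrome c (symbols beginning with Ndufa, Ndufb, Ndufc, Ndufs, Ndufv, Uqcr, Cox4 to Cox8 or Atp5, the 4 Sdh subunits and Cycs) or that are protein-coding genes of the mitochondrial genome. They were kept where the mean level over the 6 libraries was at least 10 TPM, a transcript abundance corrected for length and relative to the library total. Of 121 annotated genes that matched, 13 were left out as pseudogenes and 11 lay under that minimum, so 84 nuclear and 13 mitochondrially encoded genes remained out of 22288 genes in the table. Among the 13, Ndufb1-ps was left out by its symbol alone: its annotated type is a bidirectional promoter lncRNA, its mean was 106 TPM, and it was not called (0.17, adjusted p = 0.147). Apart from that mean, no measured value entered the rule.

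The cells were CD8 T cells, the killer lymphocytes, isolated in the naive state from spleens of wild-type C57BL/6 mice, an inbred laboratory strain. All were cultured with IL-2, a T cell growth factor, and activated for 48 h by antibodies against CD3 and CD28, the antigen receptor complex and its costimulator. The 3 control libraries were from cells given the solvent DMSO, and the other 3 from cells given 10 nM ponatinib, a drug that blocks the BCR-ABL kinase and many further kinases. The comparison asks how transcript levels after activation differed with the drug. Whether the replicates came from different animals or wells is not in the labels, so the tests reflect the spread among these 6 samples alone, and that spread may be technical.

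Complexes I and II take electrons from NADH and succinate and pass them to ubiquinone. Complex III hands them to cytochrome c, complex IV passes them to oxygen, and the protons pumped by complexes I, III and IV drive ATP synthesis by complex V. Naive T cells rely mainly on this respiration, and activated T cells raise both glycolysis and mitochondrial biogenesis. The mitochondrial genome is transcribed by a polymerase of its own, as long precursor RNAs from which the messenger RNAs are cut.

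The nuclear genes moved little and the mitochondrial genes could not be resolved. Of the 84 nuclear genes, 11 were higher and 3 lower with ponatinib (limma, adjusted p under 0.05), and 70 were not called. Over all 6816 genes tested, 27.3% were higher and 9.13% lower, against 13.1% and 3.57% of these nuclear genes. The median log2 fold change was 0.01 for the nuclear genes and 0.10 for all genes tested. In 72 of 84 nuclear genes (85.7%) the estimate was within 0.2 log2 units of 0, against 56.1% of all genes tested. Only Ndufv3 passed 0.5 log2 units in either direction, 1.19% of the nuclear genes against 9.46% of all. The median standard error was 0.05 for these genes and 0.08 for all. Their median level was 215 TPM, against 35.6 TPM for all genes tested, and these comparisons were not matched for level.

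The position of 0 depends on the scaling of the libraries. Medians-of-ratios scaling moved the median of all genes from 0.10 to 0.0027 and that of the nuclear genes from 0.01 to -0.09, so the distance between them was -0.09 under both. With that scaling 3 nuclear genes were called higher and 21 lower, beside 15.5% and 16.7% of all genes. With quantile normalization the counts were 5 and 14, beside 18.3% and 14.5%. Leaving out ponatinib replicate 1, 2 or 3 gave 5, 6 or 4 higher calls, and leaving out DMSO replicate 1 gave 7. Leaving out DMSO replicate 3 gave 13 higher and 5 lower, beside 39.3% and 9.86% of all genes in that fit. For the other omissions, here and below, the share over all genes is not given. Their counts thus do not separate these genes from a change in calls over all genes. The genes whose calls held under all 18 alternatives were Ndufv3, Uqcrb and Atp5mpl, with Ndufaf4 holding under the 17 in which it was tested.

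Summed over the 84 nuclear genes, the level was 24599, 24405 and 24810 TPM in the DMSO libraries and 24653, 24623 and 25058 TPM in the ponatinib libraries. These sums were 2.44% to 2.51% of each library and overlapped between the groups. For contrast, the 12 glycolytic enzymes from Gpi1 to Ldha were all lower (median log2 fold change -0.92), and their summed level was 26775, 25663 and 29118 TPM with DMSO and 13673, 15044 and 15477 TPM with ponatinib. In TPM, the 84 nuclear genes, without the mitochondrially encoded ones, thus stood at a summed level like that of the 12 glycolytic enzymes in DMSO. Only the glycolytic sum separated the groups in TPM. The overlap of the nuclear sums holds for TPM as deposited. Library factors of medians-of-ratios scaling were 0.948, 0.939 and 1.01 with DMSO and 1.02, 1.04 and 1.06 with ponatinib. Division by these factors puts every ponatinib sum of the nuclear genes below every DMSO sum, so under that scaling these sums do not overlap. The 77 tested mitochondrial ribosomal protein genes, another nuclear set for the same organelle, had 15 higher, 2 lower and a median of 0.03. Of all genes tested, 27.3% were higher and 9.13% lower. In bulk RNA, fewer cells of a type and less RNA per cell cannot be told apart.

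**Figure D1:**
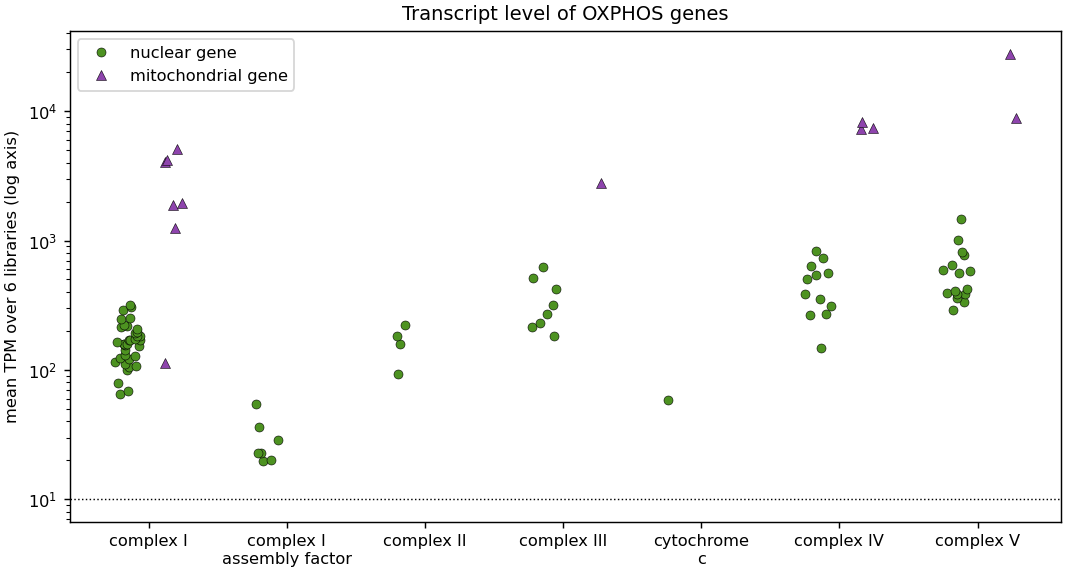
Mean TPM over the 6 libraries (log axis) of each of the 97 genes by complex, nuclear and mitochondrially encoded genes apart, with the 10 TPM minimum as a dotted line. Nuclear subunits of complexes IV and V have higher medians than those of complexes I and II, and most mitochondrially encoded genes sit above all nuclear ones.

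Levels differed by complex more than by treatment. The median of mean TPM was 162 for the 36 nuclear complex I subunits (65.4 to 319), 171 for complex II (92.5 to 221), 294 for complex III (183 to 626), 444 for complex IV (146 to 824) and 491 for complex V (291 to 1460). The 7 Ndufaf assembly factors, which help build complex I and are not part of it, were lowest, at a median of 22.6 TPM (19.6 to 54.4). Cycs, the soluble electron carrier, averaged 58.3 TPM. The 13 mitochondrial genes had a median of 4168 TPM (113 to 27883).

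Several isoforms typical of muscle, testis or hypoxic tissue were under the minimum. Cox7b2, Cox8b and Cox8c were listed at 0 in every library, Cox4i2 reached at most 0.198 TPM, and Ndufa4l2 was listed at 0 in all but 1 library, at 0.0597 TPM. The muscle isoforms Cox6a2 and Cox7a1 were highest in DMSO replicate 3, at 6.08 and 6.22 TPM, against at most 1.45 and 2.38 TPM in the other 5 libraries. The gene nearest to the minimum from below was Ndufaf3, at 8.74, 8.93 and 9.38 TPM with DMSO and 9.83, 7.63 and 9.48 TPM with ponatinib. The nearest from above, by the row that carried its gene identifier, was Ndufaf4 at 12.9 TPM.

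**Figure D2:**
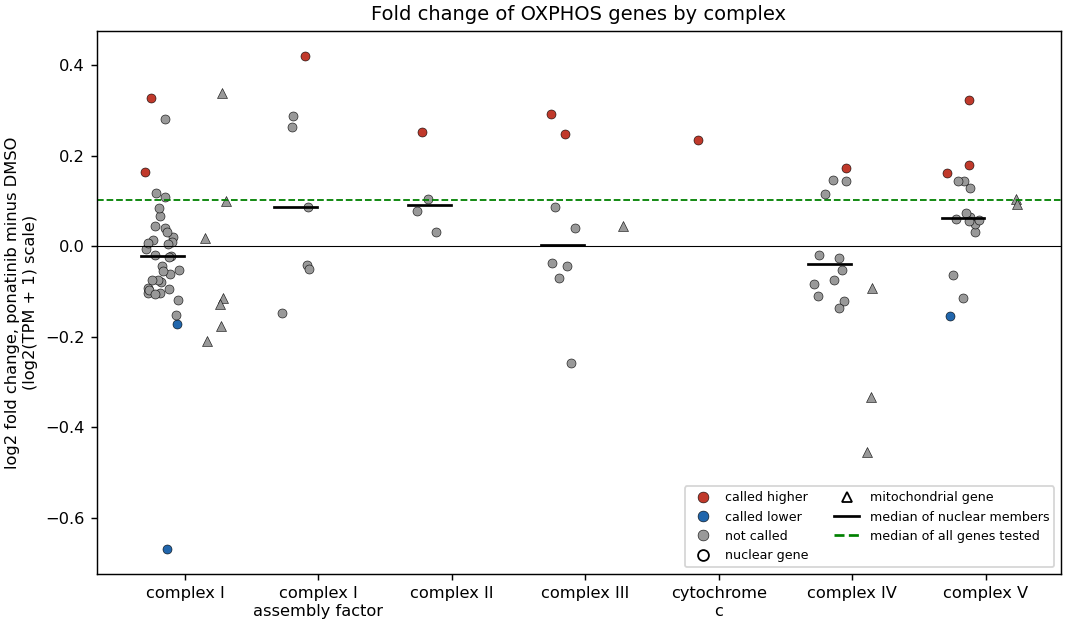
Log2 fold change, ponatinib against DMSO, of each gene by complex, with circles for nuclear and triangles for mitochondrially encoded genes, red for called higher, blue for called lower and grey for not called. Black bars are medians of nuclear genes and the green dashed line is the median of all genes tested, 0.10; Ndufv3 at -0.67 stands apart.

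Complex I, the NADH dehydrogenase, had 2 of 36 nuclear subunits higher (Ndufa5, Ndufb7), 2 lower (Ndufv3, Ndufv1) and a median of -0.02. Among all genes tested, 27.3% were higher and 9.13% lower. Ndufv3 (ENSMUSG00000024038, GRCm38 chr17:31520115-31531331, plus strand), a small accessory subunit of the NADH-oxidizing flavoprotein part, measured 231, 212 and 276 TPM with DMSO and 147, 148 and 153 TPM with ponatinib. Every ponatinib library lay below every DMSO library, and DMSO replicate 3 was the highest. The mean was 37.6% lower, a log2 fold change of -0.67 ± 0.09 (SE, adjusted p = 0.0016). Without DMSO replicate 3 it was -0.56 (adjusted p = 0.000117). Over all 18 alternatives its adjusted p ran from 0.000117 to 0.0105, and no other of the 97 genes had an estimate as far from 0.

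The NADH-binding core subunit of the same module, Ndufv1, measured 132, 131 and 122 TPM with DMSO and 110, 116 and 115 TPM with ponatinib. The groups did not overlap, and the log2 fold change was -0.17 ± 0.05 (adjusted p = 0.0393), a call lost under 8 of 18 alternatives. Further core subunits of the matrix arm, the part that carries the iron-sulfur clusters, were not called: Ndufv2, Ndufs3, Ndufs7 and Ndufs8 had log2 fold changes from -0.07 to 0.01. Ndufs1, the largest of the core proteins, measured 62.2, 55.0 and 68.8 TPM with DMSO and 67.9, 72.6 and 86.2 TPM with ponatinib. Its groups overlapped, with an estimate of 0.28 (adjusted p = 0.0762).

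Ndufa5, an accessory subunit of the matrix arm, measured 64.2, 74.2 and 71.6 TPM with DMSO and 94.4, 83.2 and 86.6 TPM with ponatinib. All ponatinib libraries were above all DMSO libraries (0.33 ± 0.07, adjusted p = 0.0116), a call lost only with medians-of-ratios scaling, among alternatives with adjusted p from 0.00687 to 0.0597. Ndufb7, an accessory subunit of the membrane arm, was 284, 278 and 264 TPM with DMSO and 311, 311 and 305 TPM with ponatinib (0.17, adjusted p = 0.0257). Its groups did not overlap, and the call was lost under 8 alternatives. Levels ran from Ndufb4 at 65.4 TPM to Ndufa12 at 319 TPM, and neither of these was called.

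Ndufaf4 (ENSMUSG00000028261, GRCm38 chr4:24898083-24905001, plus strand), an assembly factor of complex I, was the member with the largest rise. It measured 16.3, 18.7 and 16.3 TPM with DMSO and 23.0, 23.3 and 23.3 TPM with ponatinib. The groups did not overlap, with a log2 fold change of 0.42 ± 0.08 (adjusted p = 0.00512). The other 6 assembly factors were not called, although Ndufaf2 (0.29, adjusted p = 0.0544) and Ndufaf8 (0.26, adjusted p = 0.076) had estimates above 0.2.

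Complex II, succinate dehydrogenase, is wholly nuclear-encoded, and 1 of its 4 subunits, Sdhd, was higher, beside 27.3% of all genes tested. Sdhd, a membrane anchor, measured 173, 172 and 151 TPM with DMSO and 184, 203 and 205 TPM with ponatinib (0.25, adjusted p = 0.0246). The groups did not overlap, and 6 of 18 alternatives lost the call. The flavoprotein Sdha (0.10, adjusted p = 0.115), the iron-sulfur subunit Sdhb (0.08, adjusted p = 0.211) and the other anchor Sdhc (0.03, adjusted p = 0.723) were not called.

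In complex III, the ubiquinol-cytochrome c reductase, 2 of 8 nuclear subunits were higher and none lower, with a median of 0.00. Those counts stand beside 27.3% higher and 9.13% lower among all genes tested. Uqcrb, a ubiquinone-binding accessory subunit, measured 208, 207 and 211 TPM with DMSO and 242, 246 and 257 TPM with ponatinib. The groups were separated by more than their spread (0.25 ± 0.05, adjusted p = 0.00507). Uqcrh, the hinge protein that helps dock cytochrome c, measured 485, 488 and 413 TPM with DMSO and 583, 547 and 564 TPM with ponatinib. DMSO replicate 3 was the lowest and the groups did not overlap (0.29, adjusted p = 0.0147), with 4 alternatives losing the call.

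The core and catalytic subunits of complex III did not pass the test: Uqcrc1 was at -0.07, Uqcrc2 at -0.04 and the Rieske iron-sulfur protein Uqcrfs1 at -0.04. Uqcrq, an accessory subunit, measured 414, 417 and 564 TPM with DMSO and 371, 388 and 396 TPM with ponatinib. All ponatinib values were below all DMSO values, but DMSO replicate 3 stood far above the rest and the estimate of -0.26 had an adjusted p of 0.109. Without that library the estimate was -0.11. It was called lower with medians-of-ratios scaling (adjusted p = 0.0217) and quantile normalization (adjusted p = 0.0415), over a range up to 0.246 among the alternatives. Cyc1, the catalytic cytochrome c1, falls outside the symbol rule and measured 209, 209 and 194 TPM with DMSO and 182, 199 and 190 TPM with ponatinib (-0.10, adjusted p = 0.19).

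Cycs, which shuttles electrons from complex III to complex IV and also triggers apoptosome assembly when released, measured 52.3, 52.8 and 55.3 TPM with DMSO and 64.4, 59.9 and 65.0 TPM with ponatinib. It was higher in every ponatinib library (0.23, adjusted p = 0.0163), and 4 of 17 alternatives lost the call.

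Complex IV, cytochrome c oxidase, had 1 of 12 nuclear genes higher, beside 27.3% of all genes tested, and a median of -0.04. Cox6b1, an intermembrane-space subunit, measured 356, 351 and 388 TPM with DMSO and 407, 410 and 419 TPM with ponatinib. The groups did not overlap (0.17, adjusted p = 0.0313), and 9 of 18 alternatives lost the call. The regulatory subunit Cox4i1, the most abundant at a mean of 824 TPM, was at -0.12 (adjusted p = 0.117). Cox5a and Cox5b were at -0.02 and -0.05, Ndufa4, once assigned to complex I, at 0.11 (adjusted p = 0.0731), and the supercomplex factor Cox7a2l at 0.15 (adjusted p = 0.241).

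Complex V, the ATP synthase, had 3 of 16 nuclear genes higher, 1 lower and a median of 0.06. Over all genes tested, 27.3% were higher and 9.13% lower. Atp5b, the catalytic beta subunit and the most abundant nuclear member, measured 1556, 1507 and 1551 TPM with DMSO and 1323, 1380 and 1445 TPM with ponatinib. All ponatinib libraries were below all DMSO libraries (-0.15, adjusted p = 0.0336), and 7 of 18 alternatives lost the call. Its partner in the catalytic head, the alpha subunit Atp5a1, was at 0.03 (adjusted p = 0.671).

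Atp5mpl, a small membrane proteolipid of the synthase, measured 518, 496 and 520 TPM with DMSO and 664, 594 and 667 TPM with ponatinib. The groups were clearly apart (0.32 ± 0.06, adjusted p = 0.00421). Atp5j2, membrane subunit f (0.18, adjusted p = 0.0459), and Atp5j, coupling factor 6 of the peripheral stalk (0.16, adjusted p = 0.0345), were also higher, but 11 and 9 of 18 alternatives lost those calls. The 3 genes for the proton-carrying c ring, Atp5g1, Atp5g2 and Atp5g3, which encode the same mature protein, were at 0.13, -0.06 and 0.14, none of them called.

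The inhibitor of ATP hydrolysis by complex V, Atpif1, is listed under a symbol outside the rule and moved more than any ATP synthase subunit. It measured 275, 241 and 279 TPM with DMSO and 178, 186 and 197 TPM with ponatinib. No ponatinib library reached the lowest DMSO value (-0.50 ± 0.07, adjusted p = 0.00178), and all 18 alternatives kept the call.

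**Figure D3:**
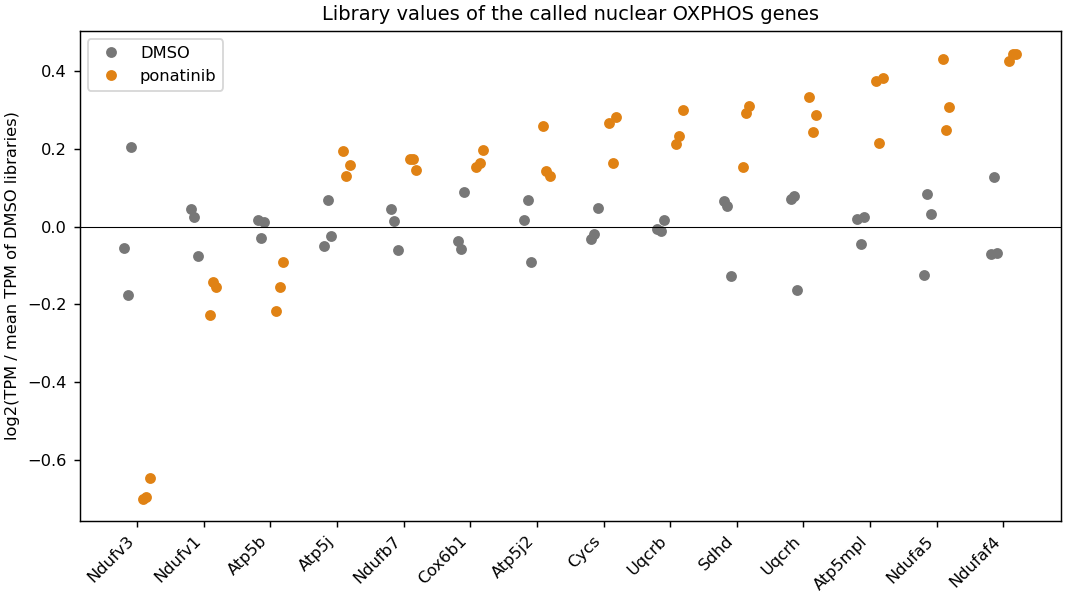
Level of each of the 14 called genes in every library as log2 of TPM over the DMSO mean of that gene, DMSO and ponatinib libraries apart. Ndufv3, Ndufv1 and Atp5b lie below 0 in all ponatinib libraries and the other 11 lie above 0, most within 0.4 log2 units.

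Promoter windows of the RefSeq table (GRCm38.p6, the 250 bases before the transcript start) were matched for 70 of the 84 nuclear genes. The site of NRF-1, an activator of many respiratory genes, was searched by its central letters CGCATGCG on both strands, and 8 of 70 windows held it (11.4%), against 1.58% of all windows and 3.94% of those of tested genes. The ETS core bound by GABP, CCGGAA, was in 21 of 70 windows (30%), against 12.3% of all and 27.8% of those of tested genes. The letters AAGATGGCG of YY1 were in 0 of 70 (0.592% and 1.38%). The E-box letters CACGTG were in 5 (6.04% and 8.93%), and the hypoxia response core ACGTG, which lies inside CACGTG, in 13 (16.5% and 24.0%). A match is a description of these letters and not a bound site.

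The windows of 4 called genes from complex I, its assembly and complex III are printed to show how unlike their letters are, 5′ to 3′ on the gene's strand, with a match to NRF-1 or ETS letters in capitals. Ndufv3 fell and has an ETS match (chr17:31519865-31520114, plus strand). Ndufaf4 rose and has the NRF-1 match (chr4:24897833-24898082, plus). Ndufa5 rose and has none of the 5 motifs (chr6:24527691-24527940, minus). That window lies inside the gene as annotated in GENCODE M21 (chr6:24518666-24528013), so the bases before the GENCODE start were not searched. Uqcrh rose and has an ETS match read on the other strand (chr4:116075071-116075320, minus).
Ndufv3: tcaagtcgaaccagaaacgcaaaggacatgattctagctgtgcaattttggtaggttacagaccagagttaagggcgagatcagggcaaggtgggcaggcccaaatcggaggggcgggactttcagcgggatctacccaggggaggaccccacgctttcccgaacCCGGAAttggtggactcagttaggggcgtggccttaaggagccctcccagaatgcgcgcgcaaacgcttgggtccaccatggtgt
Ndufaf4: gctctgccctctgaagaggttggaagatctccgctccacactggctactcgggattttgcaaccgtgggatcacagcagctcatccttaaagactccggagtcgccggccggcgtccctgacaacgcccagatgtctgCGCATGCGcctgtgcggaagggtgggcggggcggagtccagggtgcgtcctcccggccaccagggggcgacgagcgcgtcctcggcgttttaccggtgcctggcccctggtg
Ndufa5: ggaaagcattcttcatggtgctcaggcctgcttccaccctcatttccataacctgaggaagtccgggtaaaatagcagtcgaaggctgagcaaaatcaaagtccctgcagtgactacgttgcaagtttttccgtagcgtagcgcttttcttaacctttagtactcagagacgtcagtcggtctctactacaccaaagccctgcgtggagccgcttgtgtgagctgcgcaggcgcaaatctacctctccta
Uqcrh: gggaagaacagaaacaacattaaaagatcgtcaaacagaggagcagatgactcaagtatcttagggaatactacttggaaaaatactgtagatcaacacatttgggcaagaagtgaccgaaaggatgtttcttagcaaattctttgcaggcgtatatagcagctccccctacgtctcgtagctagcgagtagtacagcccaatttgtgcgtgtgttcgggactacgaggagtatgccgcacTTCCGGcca
Of the 12 called genes with a window, 6 held the ETS letters and 2 the NRF-1 letters, so neither set of letters was shared by all of them.

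The mitochondrially encoded genes were too variable among DMSO libraries for the treatment to be resolved. Together they took 9.76%, 10.7% and 4.78% of all TPM with DMSO and 7.98%, 8.19% and 7.16% with ponatinib. DMSO replicate 3 was far below the other DMSO libraries, and the ponatinib libraries lay between. The ratio of mitochondrial to nuclear members was 3.97, 4.38 and 1.93 with DMSO and 3.24, 3.33 and 2.86 with ponatinib. The nuclear members took 2.48% of TPM in DMSO replicate 3, inside the range of the other libraries, so its low ratio lay on the mitochondrial side. Of 13 genes, limma called 0 higher and 0 lower, and 0 had an unadjusted p under 0.05. Their median log2 fold change was -0.09 and their median standard error 0.29.

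Without DMSO replicate 3, 11 of the 13 were called lower, with a median of -0.40, beside 9.86% lower and 39.3% higher among the 6773 genes of that fit, in which 13 nuclear members were higher and 5 lower. Without DMSO replicate 1 or 2 the median was 0.07 or 0.15. Whichever library was left out, mt-Co1 (-0.86 to -0.24), mt-Co2 (-0.80 to -0.05) and mt-Nd6 (-0.37 to -0.04) stayed below 0 and mt-Nd3 (0.08 to 0.48) above it. The estimates of the others took either sign. DMSO replicate 3 also held the highest values of Ndufv3, Uqcrq and the lower-called genes Higd1a, Cox17 and Sco1. No label sets it apart, and what makes it differ was not tested.

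The cytochrome c oxidase core subunit mt-Co1 measured 11868, 12253 and 5206 TPM with DMSO and 6501, 7092 and 6374 TPM with ponatinib. The ponatinib libraries lay between DMSO replicate 3 and the other 2 (-0.45, adjusted p = 0.255). The complex I subunit mt-Nd3 measured 4280, 4183 and 2486 TPM with DMSO and 4613, 4336 and 4509 TPM with ponatinib. It was the mitochondrial gene whose groups did not overlap (0.34, adjusted p = 0.188); 37.6% of all tested genes had every ponatinib value above every DMSO value, and 13.8% the reverse. Among nuclear members 22 of 84 were apart upward and 13 downward.

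The other mitochondrially encoded core subunits of complex IV, mt-Co2 and mt-Co3, were at -0.33 (adjusted p = 0.468) and -0.09 (adjusted p = 0.755). The complex III subunit mt-Cytb was at 0.04, and the membrane-arm core subunits of complex I, mt-Nd1, mt-Nd2, mt-Nd4, mt-Nd4l and mt-Nd5, were between -0.21 and 0.10. The proton channel subunit mt-Atp6 was at 0.10. The highest level of all genes here was that of mt-Atp8, a 204-base reading frame and the shortest of the 13, at a mean of 27883 TPM (0.09). The lowest mitochondrial gene was mt-Nd6, the complex I subunit encoded on the other strand, at 145, 127 and 91.2 TPM with DMSO and 96.0, 106 and 114 TPM with ponatinib. Its values overlapped (-0.18, adjusted p = 0.398).

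Neighbouring mitochondrial genes share bases, which can divide reads between them. Reading frames mt-Atp8 and mt-Atp6 share 43 bases on 1 strand, mt-Nd4l and mt-Nd4 share 7, mt-Atp6 and mt-Co3 share 1, and mt-Nd5 and mt-Nd6 share 14 on opposite strands. The labels do not say whether the libraries kept strand, so reads of mt-Nd5 and mt-Nd6 in those bases cannot be told apart. The shared bases of the first and second pair are shown in capitals with 10 bases on either side (GRCm38 chrM:7917-7979 and chrM:10157-10183, plus strand). Reads within them can belong to either gene of a pair. How far this sets the levels of mt-Atp8 and mt-Nd4l was not tested.
mt-Atp8 and mt-Atp6: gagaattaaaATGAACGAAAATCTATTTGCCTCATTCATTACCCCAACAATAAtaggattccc
mt-Nd4l and mt-Nd4: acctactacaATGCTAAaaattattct

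Shares within the 13 genes remove the library-wide difference in mitochondrial RNA. The share of mt-Co1 was 12.2%, 11.5% and 10.9% with DMSO and 8.15%, 8.66% and 8.90% with ponatinib, lower in all 3 ponatinib libraries, DMSO replicate 3 included. The share of mt-Nd3 was 4.38%, 3.91% and 5.20% with DMSO and 5.78%, 5.29% and 6.30% with ponatinib, higher in all 3. The groups also stayed apart, in the same directions, when mt-Atp8 was left out of the total: mt-Co1 was then at least 16.5% with DMSO and at most 13.6% with ponatinib, and mt-Nd3 was 6.52%, 5.81% and 7.86% against 9.24%, 8.30% and 9.64%.

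The share of mt-Atp8 itself was 32.8%, 32.6% and 33.9% with DMSO and 37.4%, 36.2% and 34.7% with ponatinib. In all, 2 of 13 shares were apart upward (mt-Nd3, mt-Atp8), 3 downward (mt-Co1, mt-Co2, mt-Nd5), and 8 overlapped. When mt-Atp8 was left out, the downward gaps of mt-Co2 and mt-Nd5 closed, and mt-Nd4l became apart upward, at 9.65%, 8.69% and 8.70% with DMSO and 10.6%, 9.84% and 10.6% with ponatinib. Shares add to a fixed total, so a rise in some forces a fall in others. An exact two-sided permutation test of each share over 13 genes gives at best p = 0.1 with 3 against 3 libraries (0.26 after Benjamini-Hochberg adjustment), so no share could pass the threshold. These shares were examined after the levels had been seen.

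**Figure D4:**
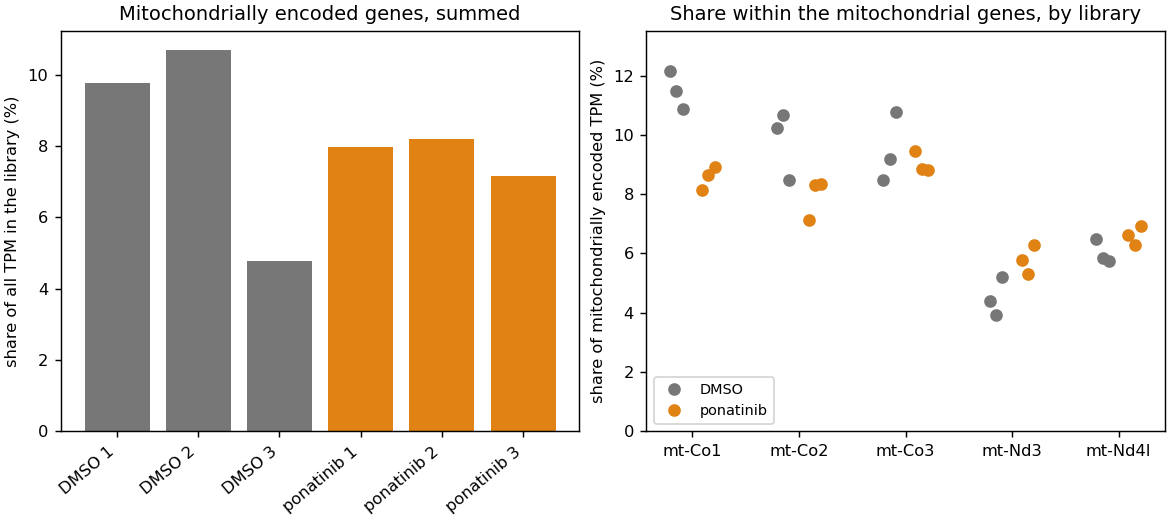
Left, share of all TPM taken by the 13 mitochondrially encoded genes in each library; right, share of mt-Co1, mt-Co2, mt-Co3, mt-Nd3 and mt-Nd4l within those 13 genes, a point per library. The DMSO bars span 4.78% to 10.7% and enclose the ponatinib bars, while the mt-Co1, mt-Co2 and mt-Nd3 points of the groups do not overlap.

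Part of the signal of 37 members was deposited in separate rows of single transcripts, 73 in all, which were added to the gene. Such rows held over 10% of the level in 7 genes, most in Ndufs4 (77.0%), which helps to stabilise the NADH-oxidizing module, and Ndufab1 (50.9%), the mitochondrial acyl carrier protein. Of 8 such rows tested on their own, 2 were lower and 0 higher, beside 8.72% lower and 26% higher over 7348 rows. A transcript of Ndufs4 annotated for nonsense-mediated decay, ENSMUST00000225707, measured 30.6, 37.6 and 39.2 TPM with DMSO and 18.3, 24.9 and 28.5 TPM with ponatinib (-0.58, adjusted p = 0.0342). Its groups did not overlap, whereas the Ndufs4 total overlapped (0.00, adjusted p = 0.971).

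The Ndufs4 transcript ENSMUST00000225035, also annotated for decay, measured 24.7, 39.7 and 40.8 TPM with DMSO and 51.8, 42.4 and 42.9 TPM with ponatinib (0.40, adjusted p = 0.145). The Ndufab1 transcript ENSMUST00000139456 measured 88.7, 90.8 and 88.9 TPM with DMSO and 70.8, 75.3 and 82.6 TPM with ponatinib (-0.23, adjusted p = 0.0307). The Ndufab1 total was 167, 167 and 179 TPM with DMSO and 148, 164 and 166 TPM with ponatinib and was not called (-0.10, adjusted p = 0.212). Transcripts of 1 gene share most of their bases, so their split is an estimate.

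Of 48 further OXPHOS subunits and assembly factors outside the symbol rule, 38 were tested, with a median of 0.06. Of these, 7 were higher and 3 lower, beside 27.3% higher and 9.13% lower among all genes tested. The 3 lower ones moved further than any nuclear member but Ndufv3. Higd1a, a hypoxia-inducible factor of complex IV and supercomplexes, measured 149, 147 and 205 TPM with DMSO and 79.8, 86.1 and 93.0 TPM with ponatinib (-0.93, adjusted p = 0.00167). Cox17, the copper chaperone of complex IV, measured 542, 520 and 705 TPM with DMSO and 377, 413 and 396 TPM with ponatinib. Its groups did not overlap (-0.56, adjusted p = 0.00633).

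Sco1, which inserts copper into the mt-Co2 protein, was 18.5, 15.7 and 37.8 TPM with DMSO and 9.25, 11.2 and 12.7 TPM with ponatinib. It was lower (-0.96, adjusted p = 0.0327), but without DMSO replicate 3 the estimate was -0.59, and adjusted p ran from 0.00586 to 0.11 over the alternatives, with the call lost without any of the ponatinib libraries. The 7 higher ones were the complex III factors Uqcc2 (0.20, adjusted p = 0.00789) and Uqcc3, the complex IV factors Cox20, Coa5 and Cmc2 (0.27, adjusted p = 0.00924), the complex V factor Atpaf2 and the complex I factor Dmac1. Of 17 alternatives, Atpaf2 lost its call under 12, Cox20 under 11, Uqcc3 under 4, Cmc2 under 3, Dmac1 under 1 and Coa5 under 0. Uqcc2 lost it under 1 of 18. With medians-of-ratios scaling the counts were 2 higher and 6 lower, beside 15.5% and 16.7% of all genes. Higher calls numbered 11 without DMSO replicate 3, beside 39.3% of all genes in that fit. They numbered 4 without ponatinib replicate 1 and 3 without ponatinib replicate 3.

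Genes that serve the mitochondrial genome were tested as 2 lists. Their counts stand beside 27.3% higher and 9.13% lower among all genes tested, or 34.9% and 11.9% at an unadjusted p under 0.05, so higher calls outnumbered lower ones over all genes too. Of 11 tested for mitochondrial DNA transcription and replication, 5 were higher and 0 lower by limma, also at an unadjusted p under 0.05. Tfb2m, which melts mitochondrial promoters with the polymerase, measured 13.3, 11.9 and 12.5 TPM with DMSO and 18.7, 19.5 and 19.9 TPM with ponatinib. The groups were far apart (0.59 ± 0.08, adjusted p = 0.00144), and all 17 alternatives kept the call. Mterf3, a negative regulator of mitochondrial transcription (0.37, adjusted p = 0.00965), the DNA-binding protein Ssbp1 (0.27, adjusted p = 0.0128), the RNA polymerase Polrmt (0.33, adjusted p = 0.014) and the packaging factor Tfam (0.20, adjusted p = 0.0288) were also higher. Medians-of-ratios scaling gave 2 higher calls, beside 15.5% of all genes. Leaving out DMSO replicate 1 or ponatinib replicate 3 also gave 2, and leaving out ponatinib replicate 2 gave 3.

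Of 16 tested genes for mitochondrial RNA processing and stability, 3 were higher and 0 lower by limma, and 4 and 0 at an unadjusted p under 0.05. They were Elac2, which cuts the 3′ ends of mitochondrial tRNAs (0.32, adjusted p = 0.00463), Lrpprc, which stabilises mitochondrial messenger RNAs (0.24, adjusted p = 0.0127), and Fastkd2, an RNA-binding protein of mitochondrial RNA granules (0.34, adjusted p = 0.0213). With medians-of-ratios scaling 1 was higher and 1 lower, beside 15.5% and 16.7% of all genes. Without ponatinib replicate 2 or 3 only 1 was higher.

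Among 8 tested nuclear regulators of OXPHOS genes, 3 were higher and 0 lower by limma, beside 27.3% and 9.13% of all genes tested. At an unadjusted p under 0.05 the counts were 4 and 0, beside 34.9% and 11.9%. The 3 were the GABP subunit gene Gabpb2 (0.39, adjusted p = 0.00742), Yy1 (0.20, adjusted p = 0.0294) and Pprc1, a PGC-1-related coactivator (0.17, adjusted p = 0.0365). Medians-of-ratios scaling gave 1 higher call, beside 15.5% of all genes. Leaving out DMSO replicate 1 or 2 or ponatinib replicate 2 or 3 also gave 1. Without DMSO replicate 3, 5 were higher, beside 39.3% of all genes in that fit. Nrf1 measured 54.5, 62.4 and 59.8 TPM with DMSO and 63.2, 70.3 and 73.1 TPM with ponatinib and was not called (0.22, adjusted p = 0.0545). The coactivator gene Ppargc1a was listed at 0 in all libraries.

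The labelled cell type was checked with 10 markers of CD8 T cells, all tested, whose summed level was 4277 to 4485 TPM with DMSO and 4926 to 5394 TPM with ponatinib. Of these, 5 were higher, among them Cd8a and Cd8b1, and 1, Cd2, was lower. Among all genes tested, 27.3% were higher and 9.13% lower. Sums of markers of other cells were 352 to 370 TPM against 419 to 434 TPM for 12 B cell genes. Only 4 of these were tested, of which Cd79b and Cd74 were higher. Most of that sum was Ighm, at 209 to 260 TPM with DMSO and 252 to 274 TPM with ponatinib, which was not called, and H2-Ab1 was at 10.6 to 34.1 TPM with DMSO and 7.07 to 10.5 TPM with ponatinib, also not called. They were 5.49 to 14.9 against 18.4 to 22.9 TPM for 4 CD4 T cell genes, 2.65 to 3.39 against 9.11 to 12.2 TPM for 12 myeloid genes, 28.5 to 42.9 against 41.2 to 51.7 TPM for 5 NK cell genes, and 0.91 to 1.99 against 4.25 to 8.47 TPM for 9 erythroid and platelet genes. Most of the NK cell sum was Eomes, at 18.4 to 30.8 TPM with DMSO and 33.4 to 42.2 TPM with ponatinib. Eomes was called higher (limma, 0.66, adjusted p = 0.0198). Klrc1, an NK cell receptor gene, was instead at 10.0 to 14.3 TPM with DMSO and 6.41 to 8.50 TPM with ponatinib. In the CD4 list Foxp3 was at most 1.42 TPM with DMSO and 7.33 to 12.8 TPM with ponatinib. The CD4 lineage gene Zbtb7b was at 1.67 to 9.53 TPM with DMSO and 1.35 to 2.88 TPM with ponatinib. The part of such other cells in the results was not tested. Sequencing depth is unknown, because TPM keep none, and 6551 to 6972 genes reached 10 TPM per library.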

How the data were processed

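RNA was measured in 3 DMSO and 3 ponatinib libraries, grouped by their titles. The authors deposited 1 table whose values behave as TPM: all columns sum to the same total. The genome build GRCm38 and the tools fastp 0.19.5, Salmon 1.5.1 and DESeq2 1.22.1 are named, per the submitters' processing notes, without their roles, and the summing of transcripts is not described in them. TPM are relative to each library's total, so abundant genes move all others.

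The table held 22095 gene rows and 20977 transcript rows; transcript rows were added to their gene (GENCODE M21 on GRCm38), which gave 22288 genes. Those with a mean of at least 10 TPM were kept, as log2(TPM + 1), which understates changes of low genes. The groups were compared by limma 3.58.1 (intensity trend, R 4.3.3), two-sided, with Benjamini-Hochberg adjustment over all 6816 genes and calls at adjusted p under 0.05. All adjusted p-values are limma's. The fit was tested on simulated data. Reads of Cycs and other members with processed pseudogenes may be shared with them; 12 pseudogenes had no row.

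Named were all mitochondrial genes, up to 4 called members per complex and direction, a panel of core and catalytic subunits (1 of them is not reported here), the extremes of level in each complex, members near the minimum, and up to 4 genes per pathway list. The others named (Uqcrq, Ndufs4, Ndufaf2, Ndufaf8, the isoforms near 0, Cyc1, called genes beyond 4 in a list) were chosen after their values were seen. The members, lists and motif letters were chosen with earlier results of these data known. Alternatives covered scaling, rows, pseudocount, filter, variance model, replicate block and each library left out. Same-numbered libraries did not deviate together (correlations -0.10, 0.11 and 0.02 over genes), so replicate numbers were not used as pairs.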

Additional observations from a re-analysis of the deposited data

How the results depend on the processing

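Depth is unknown, so precision rests on 3 libraries per group, and DMSO replicate 3 limits every statement on mitochondrial genes. Of 14 called members, 4 kept their call under every alternative. The 11 higher and 3 lower nuclear calls became 3 and 21 with medians of ratios and 5 and 14 with quantile normalization. Higher calls were 7 after rescaling without mitochondrial genes. Without an intensity trend 7 were higher and 1 lower. With the replicate number as a block, 12 were higher and 1 lower, and Atp5b, Ndufv1 and Atp5j lost their calls. Leaving out 1 library gave 4 to 13 higher and 1 to 5 lower nuclear calls, and 0 to 11 lower mitochondrial calls.

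The nuclear median, 0.01, was -0.0908 with medians of ratios, -0.0638 with quantile normalization, 0.000354 after rescaling and 0.000102 with a 100 TPM minimum. With medians of ratios the medians were -0.124, -0.0110, -0.100, -0.141 and -0.0397 for complexes I, II, III, IV and V, and with quantile normalization -0.0898, 0.0295, -0.0457, -0.102 and 0.000678. The complex I median was -0.0444 with a 100 TPM minimum. Leaving out 1 library, it ran from -0.0313 to -0.00806, and that of complex V from 0.0494 to 0.0905. Over the same omissions mt-Nd4 ran from -0.42 to 0.27, mt-Nd4l from -0.30 to 0.30, mt-Cytb from -0.40 to 0.33 and mt-Atp8 from -0.25 to 0.30, each lowest without DMSO replicate 3. The cause was not tested.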

Other observations

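Genes that feed electrons into the chain at ubiquinone had 1 higher and 2 lower calls among 13 tested of 19. Among all genes tested, 27.3% were higher and 9.13% lower. The median log2 fold change of the list was 0.04. Both lower genes belong to the electron transfer flavoprotein route, which carries electrons from fatty acid and amino acid oxidation to ubiquinone. Etfdh, its membrane dehydrogenase, measured 26.4, 24.2 and 28.4 TPM with DMSO and 20.5, 20.4 and 20.9 TPM with ponatinib. The groups did not overlap (limma, -0.34, adjusted p = 0.0115), and all 17 alternatives kept the call. Etfa, the alpha subunit, measured 93.0, 89.4 and 101 TPM with DMSO and 81.5, 81.5 and 85.6 TPM with ponatinib (limma, -0.18, adjusted p = 0.044), and 7 of 17 alternatives lost the call. The beta subunit Etfb was not called (-0.14, adjusted p = 0.0824). Coq10b, a ubiquinone-binding protein, measured 15.2, 14.6 and 16.1 TPM with DMSO and 18.0, 19.8 and 20.4 TPM with ponatinib and was higher (limma, 0.32, adjusted p = 0.0167). With medians-of-ratios scaling 6 genes of the list were lower, beside 16.7% of all genes. Only 1 was lower without DMSO replicate 1 or any of the ponatinib libraries.

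Carriers that exchange adenine nucleotides and phosphate had 0 called genes among 6 tested by limma. At an unadjusted p under 0.05, 2 were lower and 0 higher, beside 11.9% and 34.9% of all genes tested. The adenine nucleotide carrier Slc25a4 measured 219, 221 and 205 TPM with DMSO and 183, 196 and 204 TPM with ponatinib (-0.14, adjusted p = 0.0853). The outer membrane channel Vdac1 measured 312, 316 and 347 TPM with DMSO and 273, 292 and 303 TPM with ponatinib (-0.17, adjusted p = 0.0617). Medians-of-ratios scaling called 3 of the 6 lower, beside 16.7% of all genes.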
